A study of Mus musculus with 8 samples.

Results

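The comparison is that of MBL2 cells treated with romidepsin alone against untreated MBL2 cells, 4 libraries of the 8 in the series, described over the 11934 genes tested of 12260 listed. MBL2 is a mouse T-cell lymphoma line of strain C57BL/6 induced by Moloney murine leukaemia virus. RNA was sequenced 24 h after a single dose in 96-well plates; the control group had no drug, the romidepsin group (spelled "romidespin" in the labels) had romidepsin, and the talazoparib and combination groups had talazoparib without or with romidepsin. Doses are not stated in the sources. Each group held 2 libraries of this 1 cell line, chosen here by their titles. The labels speak of 3 replicate wells and leave unsaid whether the libraries stem from separate cultures. The p-values therefore reflect the spread among these libraries, which could be technical only.

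Histone deacetylases remove acetyl groups from histone tails and other proteins, and class I enzymes (HDAC1, HDAC2, HDAC3 and HDAC8) do so mostly in the nucleus, with HDAC1, HDAC2 and HDAC3 in corepressor complexes such as NuRD, SIN3 and NCoR. Romidepsin is a cyclic depsipeptide that is reduced inside the cell, and the freed thiol binds the zinc of the class I active site. It is used against T-cell lymphomas, and the p21 gene Cdkn1a and the linker histone gene H1f0 are textbook genes induced by inhibitors of this kind. The comparison asks which transcripts differ 24 h after romidepsin alone.

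Few transcripts differed beyond the spread between libraries. Of the 11934 genes tested, 3 (0.0251%) passed an adjusted p under 0.05 (edgeR's quasi-likelihood test with p-values adjusted over all tested genes by Benjamini-Hochberg). Mdm4 (1 gene, 0.00838%) was higher with romidepsin, and Gsk3b and Tmem254a (2 genes, 0.0168%) were lower. DESeq2, the other count tool run, called 8. At an unadjusted p under 0.05 stood 522 genes (4.37%), 352 (2.95%) of them higher and 170 (1.42%) lower. That is no more than this threshold alone lets pass when no gene differs. In 2228 genes (18.7%) both romidepsin libraries lay above both control libraries, and in 2223 (18.6%) both lay below. The median log2 fold change over all tested genes was 0.0025. Changes over 2-fold were estimated for 162 genes, of which 123 had a mean under 1 CPM (read counts scaled to library size), 29 a mean of 1 to 10 CPM, 9 a mean of 10 to 100 CPM and 1, Mdm4, a mean over 100 CPM.

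**Figure D1:**
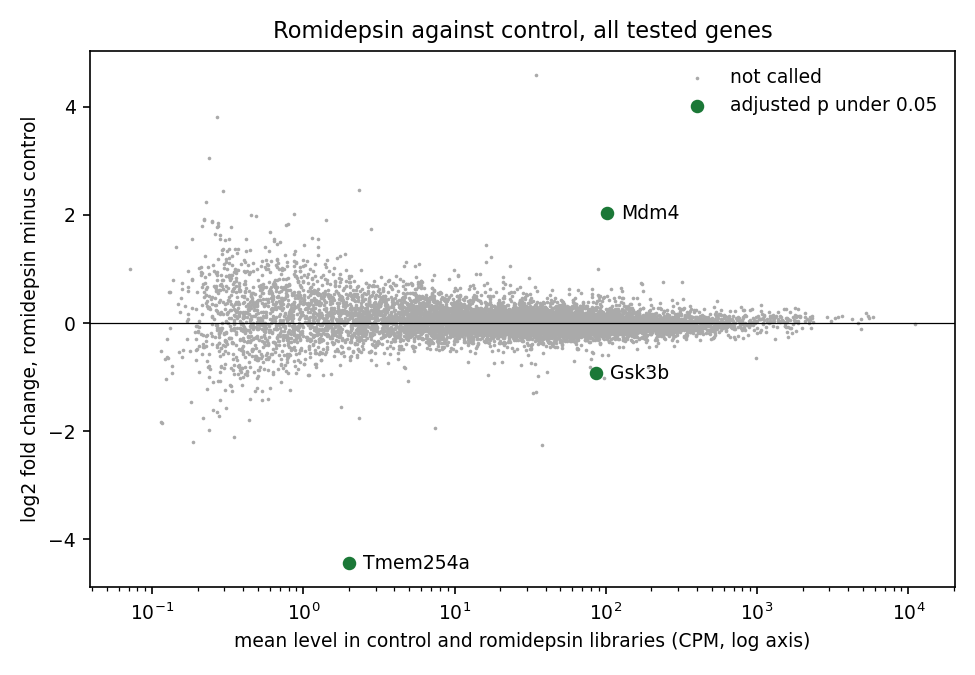
Log2 fold change, romidepsin minus control, against the mean level in the 4 compared libraries (CPM, log axis), 1 point per tested gene. The 3 genes past the threshold are green, and most of the 162 genes beyond a log2 change of 1 in either direction lie at low levels.

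The interval of each fold change shows what the comparison could resolve. The 95% interval lay within 2-fold of no change for 10212 genes (85.6%) and within 1.5-fold for 8081 (67.7%). Among 2467 genes over 100 CPM it lay within 1.5-fold for 2249, and among 1002 genes under 1 CPM it did so for 0. Libraries of the compared groups held 28419156 to 38913292 counts. The root mean square log2 difference between libraries was 0.333 between the controls, 0.376 between the romidepsin libraries and 0.346 to 0.418 across those groups. Distances across the groups thus overlapped those inside them. The ribosomal RNA gene Rn45s took 0.135% to 0.235% of these libraries.

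The cell type of the label was checked on T-cell markers: 7 of 8 were among the tested genes, with a summed level of 2703 and 2539 CPM in the control libraries and 2557 and 2645 CPM with romidepsin. Of markers of other cell types, 3 of 7 for B cells summed to 51.8 to 65.0 CPM over the 4 libraries, 4 of 8 for fibroblasts and stroma to 212 to 247 CPM, 2 of 8 for erythroid cells to 4.74 to 5.75 CPM and 3 of 7 for NK cells to 170 to 221 CPM. The 2 tested of 9 myeloid markers, Lyz2 and Itgam, summed to 7.14 and 8.57 CPM in control and 13.5 and 12.9 CPM with romidepsin. The remaining markers, Csf1r, Adgre1 and Cd8a among them, were not among the genes analysed here. The part of these markers in the results was not tested.

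Mdm4 (gene ID 17248, chromosome 1, 132986105 to 133030587), which encodes a relative of Mdm2 that binds and restrains p53, was the gene that rose. It stood at 32.2 and 47.4 CPM in the control libraries and at 171 and 155 CPM with romidepsin. Both romidepsin libraries lay far above both controls, and the control libraries differed more from each other, in proportion, than the romidepsin libraries did. The log2 fold change was 2.04 ± 0.18 (SE, n = 2 libraries per group; 95% interval 1.61 to 2.46), a level 4.10 times that of control (adjusted p = 0.0196, quasi-likelihood test of edgeR, Benjamini-Hochberg).

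In libraries with talazoparib the direction was the opposite. Mdm4 stood at 254 and 259 CPM with talazoparib alone and at 46.7 and 37.4 CPM with the combination. The combination was thus in the range of the controls, and talazoparib alone lay above romidepsin alone. Romidepsin added to talazoparib gave a log2 fold change of -2.61 ± 0.19 (SE; adjusted p = 0.00352, edgeR, Benjamini-Hochberg). The difference between the effect with and without talazoparib was -4.64 ± 0.26 on the log2 scale (adjusted p = 0.00105, same test), a test that 2 genes (0.0168%) passed, with 154 (1.29%) at an unadjusted p under 0.05. Of the 50-base stretches of its annotated transcripts, 7.30% also occur in other genes, mainly the pseudogene Mdm4-ps. The transcript length implied by the deposited counts and FPKM values (fragments per length and depth) was 7298 to 7347 bases in all 8 libraries. Of p53 target genes, 0 of 25 tested passed in romidepsin against control (median log2 fold change -0.0049).

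Gsk3b (gene ID 56637, chromosome 16, 38089001 to 38246084), which encodes glycogen synthase kinase 3 beta, a kinase of Wnt, insulin and T-cell receptor signalling, was lower. It stood at 109 and 116 CPM in control and at 61.2 and 57.3 CPM with romidepsin. Each pair lay close together and the groups were well apart. The log2 fold change was -0.92 ± 0.087 (SE, n = 2 libraries per group; 95% interval -1.12 to -0.72), a level 0.528 times that of control (adjusted p = 0.0196, quasi-likelihood test of edgeR, Benjamini-Hochberg). It stood at 100 and 95.3 CPM with talazoparib and 96.3 and 91.8 CPM with the combination, and romidepsin added to talazoparib gave -0.057 ± 0.087 (SE). The low level was seen with romidepsin alone and not in the combination libraries, but the difference of the 2 effects, 0.86 on the log2 scale, did not pass (adjusted p = 0.389, same test). Its span overlaps the gene BC031361, which was listed at 0.163 to 0.498 CPM in the 4 compared libraries, and the sources do not state whether the counting used strand. The implied transcript length was 8430 to 8458 bases throughout.

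Tmem254a (gene ID 66039, chromosome 14, 25923298 to 25927672), which encodes a transmembrane protein, had 131 and 123 counts in the control libraries and 5 and 6 with romidepsin. It also had 11 and 13 counts with talazoparib and 2 and 5 with the combination, so the controls stood alone. In CPM it went from 3.53 and 4.09 to 0.183 and 0.163, a log2 fold change of -4.44 ± 0.40 (SE, n = 2 libraries per group; 95% interval -5.35 to -3.52; adjusted p = 0.0196, quasi-likelihood test of edgeR, Benjamini-Hochberg). The gene has near-identical copies, so its value is uncertain. Of its 50-base stretches 73.1% also occur in other genes, and for Tmem254b and Tmem254c, on the same chromosome, 100% do.

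To show how alike the copies are beyond their transcripts, the 250 bases upstream of Tmem254a (chr14:25927673-25927922, minus strand) and Tmem254c (chr14:26067426-26067675, minus strand) are given, from RefSeq on GRCm38.p6, with CG dinucleotides in capitals. A comparison of both found 0 mismatches over 250 bases, which are not transcribed and do not bear on the assignment of reads.
Tmem254a: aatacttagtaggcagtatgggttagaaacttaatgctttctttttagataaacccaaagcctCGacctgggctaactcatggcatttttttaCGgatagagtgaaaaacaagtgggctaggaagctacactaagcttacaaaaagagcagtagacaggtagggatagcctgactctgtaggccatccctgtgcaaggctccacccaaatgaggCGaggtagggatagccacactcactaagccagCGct
Tmem254c: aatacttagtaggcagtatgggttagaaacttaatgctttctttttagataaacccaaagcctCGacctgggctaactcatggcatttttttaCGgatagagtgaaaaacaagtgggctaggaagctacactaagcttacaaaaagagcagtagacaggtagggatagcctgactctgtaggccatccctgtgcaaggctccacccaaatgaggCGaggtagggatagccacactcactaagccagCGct
Each holds 4 CG dinucleotides, against a median of 16 in the upstream windows of the 9536 tested genes with a RefSeq promoter.

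The copy Tmem254c (gene ID 100039192, chromosome 14, 26063751 to 26067425) went the other way, with 215 and 133 counts in control and 262 and 344 with romidepsin (log2 0.89 ± 0.18, SE), and did not pass (adjusted p = 0.940, edgeR, Benjamini-Hochberg). Tmem254b had 2 counts in each of the 4 compared libraries. Summed over the 3 copies, the level was 9.38 and 8.57 CPM in control and 9.83 and 9.57 CPM with romidepsin. The log2 fold change of the sum was 0.11 (95% interval -0.23 to 0.45; adjusted p = 0.943, edgeR, Benjamini-Hochberg). The implied transcript length of Tmem254c was 1295 and 1303 bases in control, 1459 in both romidepsin libraries and 1454 to 1479 in the other groups. That of Tmem254a was 2193 and 2200 bases in control and 2532 and 2825 with romidepsin, where it rests on 5 and 6 counts. With talazoparib it was 2252 and 2123 (11 and 13 counts), and with the combination 3577 and 2809 (2 and 5 counts). The call of Tmem254a thus did not hold for the family as a whole.

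**Figure D2:**
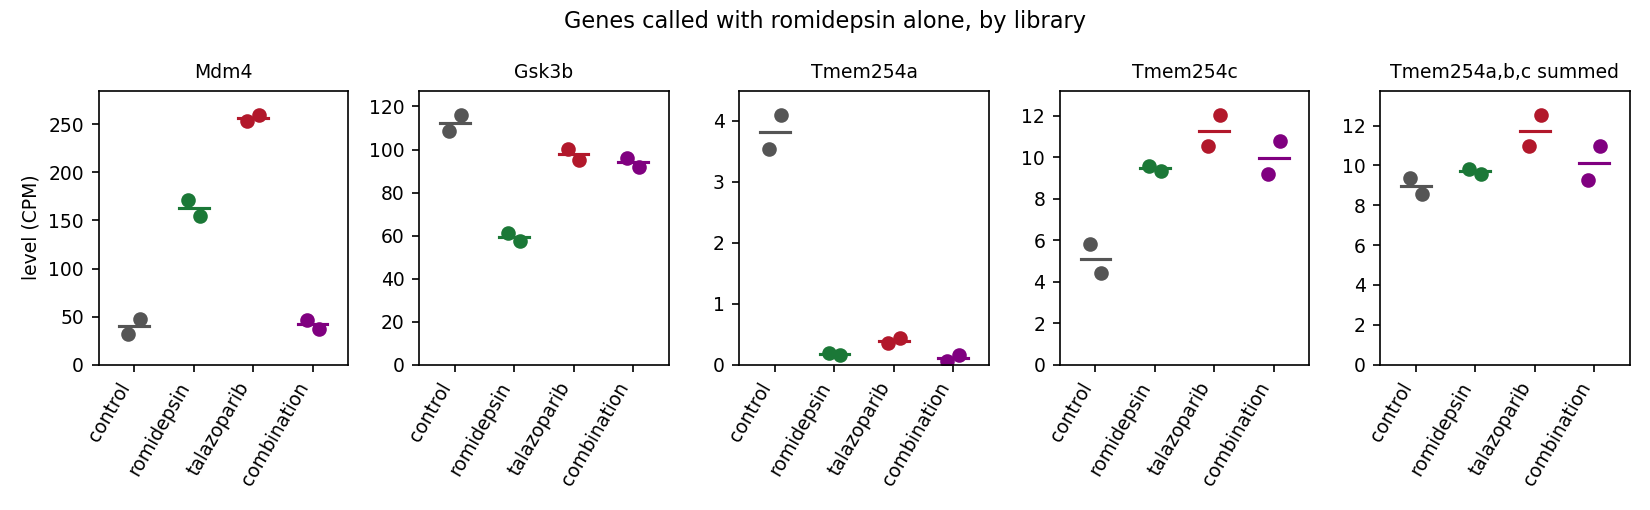
Level in CPM of each library (points) and group mean (bars) for Mdm4, Gsk3b, Tmem254a, its copy Tmem254c and the sum of the 3 Tmem254 copies. Mdm4 was high with either drug alone, Gsk3b was low with romidepsin alone, and the summed copies lay at 8.57 to 9.83 CPM in control and romidepsin while Tmem254a alone was near 0 outside control.

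Which libraries and which model were used decided these calls. With all 8 libraries kept, a term for the replicate number lost all 3 (adjusted p = 0.0944 each, edgeR, Benjamini-Hochberg). Limma on log2(FPKM + 0.1) lost Mdm4 and Gsk3b (adjusted p = 0.175 each, limma, Benjamini-Hochberg), and limma on log2(FPKM + 1) lost Gsk3b. The calls of Mdm4, Gsk3b and Tmem254a were lost without control 1, romidepsin 1, romidepsin 2, combination 1 or combination 2, that of Gsk3b also without control 2, with adjusted p of 0.0640 to 0.278 (edgeR, Benjamini-Hochberg), while the log2 fold changes over the left-out libraries stayed at 1.77 to 2.33, -0.98 to -0.88 and -4.55 to -4.34. Over all alternatives the adjusted p ran from 3.61e-25 to 0.175 for Mdm4, 3.59e-12 to 0.278 for Gsk3b and 2.48e-22 to 0.252 for Tmem254a, the lowest in DESeq2 or edgeR's likelihood-ratio test.

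Below the threshold on the higher side, the genes with the smallest unadjusted p among those of at least 1 CPM with non-overlapping groups and an ordinary symbol were Ppp2r3d, Cd74, Syt11, Ifng, Cd200r2, Lyz2, Tmem254c, Ccr7 and Hmgb1, in that order. They did not pass (adjusted p = 0.940 each, quasi-likelihood test of edgeR, Benjamini-Hochberg) and are given as values. Cd74 (chromosome 18, 60803849 to 60812652), the invariant chain of MHC class II, stood at 17.1 and 12.7 CPM in control and 25.4 and 28.5 CPM with romidepsin (log2 0.86 ± 0.15, SE). Ifng, the interferon gamma gene, stood at 13.0 and 10.7 against 19.8 and 18.9 CPM (0.71 ± 0.13). Ccr7, a chemokine receptor for homing to lymph nodes, stood at 16.1 and 14.1 against 23.4 and 21.5 CPM (0.57 ± 0.12). In each the romidepsin libraries lay above both controls. Lyz2, lysozyme of myeloid cells, stood at 3.61 and 3.55 against 5.89 and 5.98 CPM (0.73 ± 0.14), and Cd200r2, a receptor-family gene, at 0.701 and 0.565 against 1.61 and 2.12 CPM (1.55 ± 0.30). Syt11, a synaptotagmin of vesicle traffic, stood at 1.16 and 1.03 against 2.67 and 2.66 CPM (1.28 ± 0.24). Ppp2r3d, a regulatory subunit gene of protein phosphatase 2A, stood at 0.566 and 0.631 against 1.94 and 2.53 CPM (1.90 ± 0.32). Hmgb1, a chromatin protein, was the abundant gene of the group, at 477 and 449 against 654 and 580 CPM (0.41 ± 0.086), and 20.4% of its 50-base stretches also occur in other genes. DESeq2 called Cd74, Ifng and Ppp2r3d (adjusted p = 0.00219, 0.0261 and 0.0195), beside Nsg2 and the lower gene Exosc1.

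On the lower side the genes next in order also did not pass (adjusted p = 0.940 each, quasi-likelihood test of edgeR, Benjamini-Hochberg). Exosc1, a subunit of the RNA exosome, stood at 34.6 and 35.3 CPM in control and 22.6 and 18.1 CPM with romidepsin (log2 -0.78 ± 0.15, SE; adjusted p = 0.0110 in DESeq2). Lamb1, a laminin chain, stood at 36.7 and 37.8 against 27.3 and 26.3 CPM (-0.48 ± 0.11). The transcription factor genes Atf1, Gabpb1 and Pou2f1 were also lower. Atf1 stood at 91.7 and 89.1 against 71.5 and 74.6 CPM (-0.31 ± 0.078). Gabpb1 stood at 45.2 and 47.1 against 36.8 and 36.5 CPM (-0.33 ± 0.090). Pou2f1 was spread widely, at 66.1 and 31.5 against 24.3 and 16.0 CPM (-1.28 ± 0.34). Cinp, which binds the ATR partner ATRIP, stood at 52.2 and 53.7 against 29.9 and 26.3 CPM (-0.91 ± 0.24), and Rnf8, a ubiquitin ligase at double-strand breaks, at 33.7 and 35.3 against 23.9 and 24.9 CPM (-0.50 ± 0.14). Mbd3, a subunit of the deacetylase complex NuRD, stood at 81.8 and 79.2 against 63.5 and 66.8 CPM (-0.31 ± 0.084). In all 8 of these genes both romidepsin libraries lay below both controls, a condition of their choice.

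Romidepsin was also present in the combination libraries, whose comparison with talazoparib uses 4 other libraries. These share with the first comparison the drug and, in the fit, the estimate of each gene's spread. Of the 352 genes at unadjusted p under 0.05 on the higher side, 312 (88.6%) were also higher in the combination than with talazoparib, against 58.1% of the 6024 tested genes with a positive value. That comparison had an unadjusted p under 0.05 for 3.08% of all tested genes on the higher and 1.2% on the lower side. An unadjusted p under 0.05 in the same direction was seen for 106 (30.1%), against 5.36% of those 6024 genes, and in the opposite direction for 2 (0.568%). Of the 170 on the lower side, 125 (73.5%) were again lower, against 59.7% of 5910 genes with a negative value, and 23 (13.5%) had an unadjusted p under 0.05 in the same direction, against 1.88%. The median log2 fold change of the 352 genes was 0.50 in the libraries that chose them and 0.27 in the other libraries, and that of the 170 was -0.35 and -0.098. The higher genes were of low abundance, with a median of 9.19 CPM against 33.9 CPM for the lower genes and 34.6 CPM for all tested genes. Among genes with a mean of at least 10 CPM, 156 of 171 (91.2%) on the higher side kept their direction. On the lower side 95 of 122 (77.9%) did. Of all 8855 genes at that level, 5202 (58.7%) had the same sign in both comparisons.

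**Figure D3:**
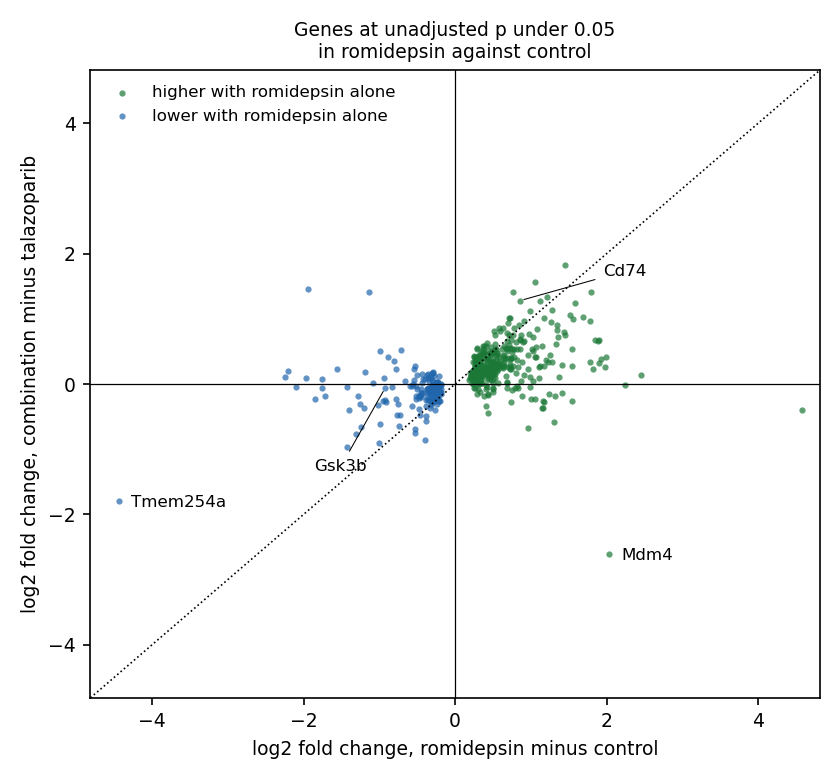
Log2 fold change of combination minus talazoparib against that of romidepsin minus control for the 522 genes at unadjusted p under 0.05 in the latter, with the dotted line marking equal effects. Of the green points 312 of 352 lie above the horizontal axis, of the blue points 125 of 170 below it, and Mdm4 lies at 2.04 and -2.61.

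Of the named genes below the threshold, Cd74 had the smallest p in the other libraries, at 37.7 and 34.3 CPM with talazoparib and 81.9 and 92.9 CPM with the combination (log2 1.28 ± 0.15, SE; adjusted p = 0.0657, edgeR, Benjamini-Hochberg, not passing). Ifng stood at 25 and 21.4 against 38.3 and 40.2 CPM (0.76 ± 0.13), and Syt11 at 1.45 and 1.74 against 3.28 and 3.74 CPM (1.14 ± 0.23). In these 3, which had the smallest unadjusted p there among the named genes below the threshold, the combination libraries lay above both talazoparib libraries. The share of all tested genes without overlap was not computed for that comparison. Cd200r2 (log2 1 ± 0.28), Ccr7 (0.29 ± 0.11), Lamb1 (-0.38 ± 0.11) and Atf1 (-0.26 ± 0.079) also had an unadjusted p under 0.05 in the same direction there. A value near 0 was seen for Hmgb1 (-0.014 ± 0.086). Signs were opposite for Exosc1 (0.22 ± 0.15), Rnf8 (0.14 ± 0.14) and Tmem254c (-0.18 ± 0.17). Direction was kept with an unadjusted p over 0.05 for Ppp2r3d (0.32 ± 0.29), Lyz2 (0.27 ± 0.13) and Pou2f1 (-0.18 ± 0.32). The same held for Cinp (-0.28 ± 0.24), Gabpb1 (-0.11 ± 0.090) and Mbd3 (-0.17 ± 0.084). Adjusted p-values of these genes other than Cd74 were 0.409 to 1 (edgeR, Benjamini-Hochberg), and 3 of 11934 genes (0.0251%) passed in that comparison.

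The genes of romidepsin's own targets did not pass. Per length, in FPKM, Hdac1 had the highest level of the class I genes, at 157 and 172 in control and 171 and 152 with romidepsin. Hdac2 stood at 71.9 and 70.0 against 74.3 and 70.8 FPKM, Hdac3 at 48.8 and 48.2 against 47.6 and 48.3 FPKM, and Hdac8 at 10.9 and 12.7 against 9.91 and 12 FPKM. The order Hdac1, Hdac2, Hdac3, Hdac8 was the same in each of the 4 libraries, and in each gene the groups overlapped. The log2 fold changes from counts were -0.026 (95% interval -0.27 to 0.21) for Hdac1 (chromosome 4, 129516104 to 129542646), 0.035 (-0.16 to 0.22) for Hdac2 (chromosome 10, 36974297 to 37001889), -0.015 (-0.20 to 0.17) for Hdac3 (chromosome 18, 37936971 to 37955015) and -0.097 (-0.44 to 0.25) for Hdac8 (chromosome X, 102284638 to 102505381). All 4 intervals lay within 1.5-fold. Of Hdac1's 50-base stretches 35.3% also occur in other genes. Of 6 other deacetylase genes and 7 sirtuin genes, 0 passed, and all 13 intervals lay within 2-fold.

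**Figure D4:**
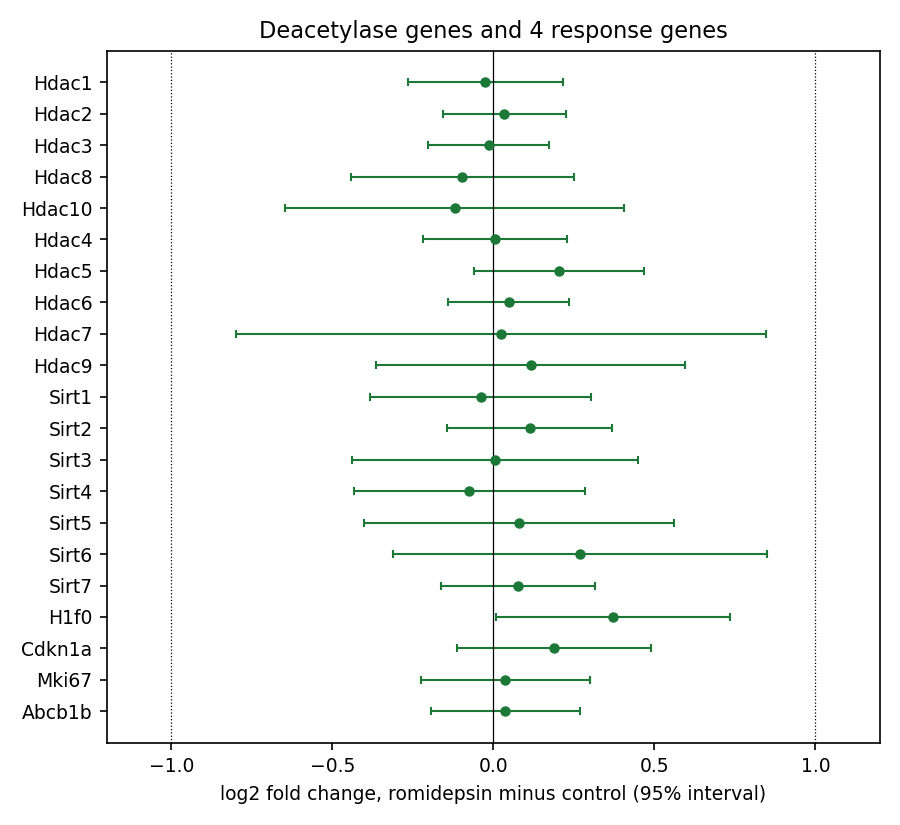
Log2 fold change of romidepsin minus control with its 95% interval for the deacetylase and sirtuin genes and for H1f0, Cdkn1a, Mki67 and Abcb1b, with dotted lines at 2-fold. All intervals lie inside the dotted lines, and that of H1f0 is the one that does not reach 0.

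The lists of partners, writers and readers of the same mark had medians near 0. Beside the sign counts of lists, 6024 of all tested genes had positive and 5910 negative values. The median over tested genes fell with abundance. It was 0.12 under 1 CPM, 0.078 at 1 to 10 CPM, -0.0044 at 10 to 100 CPM and -0.019 over 100 CPM. In the list of deacetylase corepressor complexes, 0 of 35 passed, 23 were negative and the median was -0.043, with all 35 intervals within 1.5-fold. In this list both romidepsin libraries lay below both controls in 12 genes (18.6% over all tested genes). Its members with the smallest p were Mbd3 and Ing1, a reader of the SIN3 complex, at 109 and 108 CPM in control and 91.7 and 95.9 CPM with romidepsin (log2 -0.21 ± 0.090, SE). Among 13 histone acetyltransferase genes 0 passed and 8 were negative (median -0.0097). Kat7, of the 5 positive members, stood at 82.8 and 132 against 138 and 158 CPM. Of 23 bromodomain genes, whose proteins bind acetylated lysine, 0 passed and 19 were negative (median -0.076), with Brpf1 at 66.8 and 71.6 against 59.2 and 62.9 CPM.

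The textbook response genes had small values and did not pass. Cdkn1a (chromosome 17, 29090979 to 29100722), the p21 gene, stood at 19.3 and 17.7 CPM in control and 19.0 and 23.1 CPM with romidepsin, so the groups overlapped. Its log2 fold change was 0.19 (95% interval -0.11 to 0.49; adjusted p = 0.940, quasi-likelihood test of edgeR, Benjamini-Hochberg). H1f0 (chromosome 15, 79028212 to 79030504) stood at 269 and 248 against 348 and 320 CPM, without overlap, at 0.37 (0.0076 to 0.73; adjusted p = 0.940, same test). Of 24 genes often induced by deacetylase inhibitors 18 were tested, 0 passed and 14 were positive. The median of the 18 was 0.20, and 0.19 in the combination against talazoparib. In 8 of the 18 both romidepsin libraries lay above both controls (18.7% over all tested genes). Gadd45a, a stress gene of growth arrest, stood at 120 and 96.8 against 132 and 168 CPM (0.47 ± 0.18, SE). Of 12 replication-independent and linker histone genes 0 passed and 10 were positive (median 0.20), with H2afv, an H2A.Z histone gene, at 68.0 and 84.4 against 101 and 104 CPM. In 6 of the 12 both romidepsin libraries lay above both controls (18.7% over all tested genes).

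Of the cell cycle lists, those of DNA replication, mitosis and cyclins had medians below 0 and that of CDK inhibitors one above 0, and none of their genes passed. Mki67, the marker of cycling cells (chromosome 7, 135689784 to 135716450), stood at 1179 and 1206 CPM in control and 1289 and 1158 CPM with romidepsin (log2 0.037, 95% interval -0.23 to 0.30). Of 42 DNA replication genes 34 were negative, against 5910 of all 11934 tested, with a median of -0.046. Both romidepsin libraries lay below both controls in 15 of the 42 (18.6% over all tested genes). The members with the smallest p were Orc2, of the origin recognition complex, at 145 and 154 against 94.4 and 124 CPM, and Rrm2, of ribonucleotide reductase, at 426 and 424 against 389 and 328 CPM. Of 28 mitosis genes 18 were negative (median -0.035) and all 28 intervals lay within 1.5-fold. Of 23 cyclin and cyclin-dependent kinase genes 18 were negative (median -0.080). Among them Cdk6 stood at 761.6 and 853 against 724 and 640 CPM. Of 8 CDK inhibitor genes 5 were positive (median 0.21), with Cdkn2b, the p15 gene, at 40.5 and 37.3 against 50.1 and 56.8 CPM. Homologous recombination and Fanconi genes, 34 in all, had a median of -0.022, and PARP genes, 15 in all, one of -0.027.

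Genes of cell death did not pass either. Of 21 pro-apoptotic genes 13 were negative (median -0.035, range -0.41 to 0.38). Both romidepsin libraries lay above both controls in 4 and below both in 5 (18.7% and 18.6% over all tested genes). Of the 8 positive members, Bmf stood at 58.4 and 56.9 CPM in control and 63.5 and 67.6 CPM with romidepsin. Bcl2l11, the BIM gene and also positive, stood at 26.4 and 23.6 against 27.5 and 37.5 CPM. Of 9 anti-apoptotic genes all intervals lay within 1.5-fold (median -0.016), Mcl1 standing at 163 and 165 against 153 and 154 CPM.

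Among immune lists 0 members passed, and the MHC class II list had the highest median of all 34 lists. Its 6 tested genes, of 9 written, were all positive, with a median log2 fold change of 0.51, and 0.63 in the combination against talazoparib. In 3 both romidepsin libraries lay above both controls (18.7% over all tested genes). Beside Cd74, H2-Ab1 stood at 0.539 and 0.133 CPM in control and 1.06 and 1.44 CPM with romidepsin, a level too low for a narrow interval (log2 1.84, 95% interval 0.59 to 3.09). Of 31 interferon-stimulated genes 20 were positive (median 0.068), and 13 had both romidepsin libraries above both controls (18.7% over all tested genes). Rsad2, the antiviral enzyme viperin, stood at 80.6 and 71.7 against 110 and 105 CPM (0.50 ± 0.11, SE). Eif2ak2, the double-stranded RNA sensor PKR, lay the other way at 37.8 and 42.8 against 33.2 and 28.5 CPM. MHC class I antigen presentation genes, 22 in all, had a median of 0.060.

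T-cell identity genes had a median near 0, and most activation and immediate early genes had positive values, with 0 members called. The 27 T-cell identity genes had a median of 0.010, with Lck, the kinase of the T-cell receptor, at 449 and 453 CPM in control and 404 and 409 CPM with romidepsin, and Cd7 at 1.89 and 1.33 against 2.85 and 3.53 CPM. Of 18 T-cell activation and inhibitory receptor genes 14 were positive (median 0.084). Cd274, the PD-L1 gene, stood at 19.7 and 20.1 against 24.9 and 30.9 CPM, and the early activation marker Cd69 at 19.8 and 17.8 against 24.5 and 31.9 CPM. Of 19 immediate early genes 18 were positive, with a median of 0.32, and 0.20 in the combination against talazoparib. In 10 of the 19 both romidepsin libraries lay above both controls (18.7% over all tested genes). Dusp6, a phosphatase that ends ERK signalling, stood at 51.4 and 48.8 against 61.6 and 60.5 CPM (0.29 ± 0.082, SE), and Dusp5 at 0.647 and 0.664 against 1.54 and 1.39 CPM. Of 15 NF-kB targets 9 were positive (median 0.039), with the adhesion gene Icam1 at 68.7 and 62.7 against 81.6 and 77.2 CPM.

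Growth and metabolism lists held the lowest median. Of 28 ribosome biogenesis and Myc target genes 25 were negative, with a median of -0.22, and 0 passed. In 6 of them both romidepsin libraries lay below both controls, a share near the 18.6% over all tested genes, and in the combination against talazoparib the median was -0.00081. Ncl, the nucleolin gene, stood at 1357 and 1544 CPM in control and 1259 and 1100.4 CPM with romidepsin, and Max, the partner of Myc, at 93.0 and 103 against 47.9 and 86.5 CPM. Of 22 glycolysis genes 21 were positive with a median of 0.11, the smallest p being that of the glucose transporter gene Slc2a1 at 216 and 193 against 246 and 251 CPM. Of 24 cholesterol synthesis genes 16 were positive (median 0.057), with Srebf1, a master regulator of lipid synthesis, at 119 and 129 against 154 and 155 CPM. The medians were 0.081 for 25 genes of the unfolded protein and integrated stress response, -0.093 for 15 heat shock genes and 0.041 for 23 glutathione, NRF2 and metallothionein genes.

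Of 11 ABC drug transporter genes, among which ABCB1 is known to export romidepsin, 0 passed. Abcb1b (chromosome 5, 8798147 to 8866314), the mouse pump gene measured here, stood at 93.2 and 101 CPM in control and 106 and 92.8 CPM with romidepsin (log2 0.037, 95% interval -0.20 to 0.27). Abcc1, the pump MRP1, stood at 132 and 126 against 162 and 167 CPM. The neuronal list (10 tested of 22 written, median 0.047), germ-cell list (4 of 18, -0.12) and cytoskeletal list (18 of 20, -0.010) also held 0 calls. Each gene analysed had a count in all 8 libraries, so a gene silent in control could not be called in any list. The cytoskeletal genes Tmsb4x and Acta2 lay in opposite directions, at 105 and 109 against 139 and 119 CPM and at 170 and 178 against 150 and 142 CPM.

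**Figure D5:**
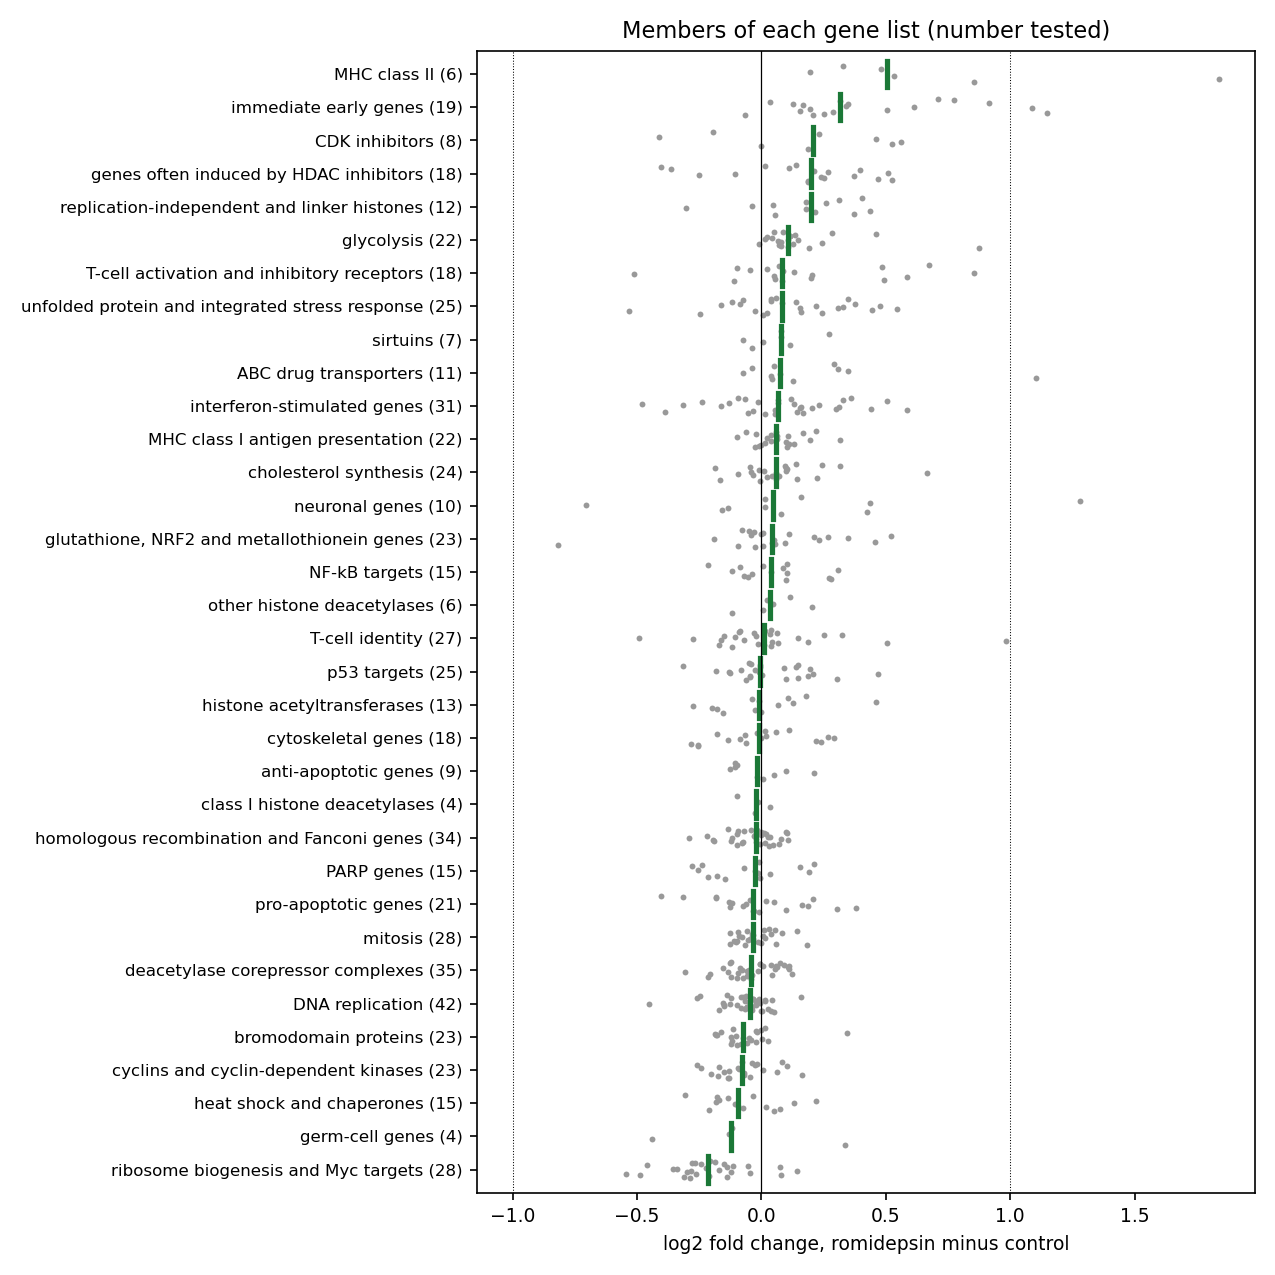
Log2 fold change of romidepsin minus control for the tested members of each gene list (grey points, number tested in brackets) and the list's median (green bar), with dotted lines at 2-fold. Medians run from -0.22 for ribosome biogenesis and Myc targets to 0.51 for MHC class II, and most points lie inside the dotted lines.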

How the data were processed

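Per the submitters' processing notes, reads were aligned to mm10 with HISAT2 and assembled with StringTie; versions, settings and the use of strand in counting are not stated in the sources. Libraries were TruSeq Stranded mRNA, per the labels' protocols. Per the file headers, the authors deposited read counts per gene and FPKM values; the counts are whole numbers. Each of the table's 12260 genes has a count of 1 or more in all 8 libraries; genes silent in any were not analysed here. Another 50 columns of per-sample values were not used, nor were the authors' own comparisons.

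Counts were filtered with filterByExpr, scaled by TMM factors of 0.954 to 1.04 and fitted by edgeR 4.0.16 (R 4.3.3), 1 term per group over all 8 libraries (residual degrees of freedom 4, biological coefficient of variation 12.9%). The threshold was a Benjamini-Hochberg adjusted p of 0.05. Intervals are at 95%. CPM values use TMM library sizes. Alternatives used DESeq2 1.42.0 and limma 3.58.1. The edgeR test of romidepsin against control was also run on simulated counts. The other comparisons, DESeq2 and limma were not checked in this way. Replicate numbers were not used as pairs in the main fit. The genes described and the 34 lists were chosen with earlier results of these data known. Named were up to 15 called genes per direction (at least 1 CPM, groups not overlapping), filled to 10 with the smallest unadjusted p, 8 fixed genes (Hdac1, Hdac2, Hdac3, Hdac8, Cdkn1a, H1f0, Abcb1b and Mki67), and list members with the smallest p; values of 1 list member are not reported. Coordinates and upstream sequences are RefSeq's on GRCm38.p6, shared 50-base stretches are from GENCODE transcripts.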

Additional observations from a re-analysis of the deposited data

Results flagged for a closer look

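The effect of romidepsin differed with and without talazoparib, by the interaction term of edgeR's fit, in 2 of 11934 genes (0.0168%), with 154 (1.29%) at an unadjusted p under 0.05 and 7 called by DESeq2. For Mdm4 the effect with talazoparib minus that without was -4.64 on the log2 scale (adjusted p = 0.00105), with 163 CPM as the mean of the romidepsin libraries and 42.1 CPM as that of the combination.

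Fam134c, a gene of autophagy of the endoplasmic reticulum, gave -1.79 (adjusted p = 0.0159, same test). It stood at 88.7 and 88.0 CPM in control and 86.7 and 98.7 CPM with romidepsin (log2 0.070), and at 103 and 97.9 CPM with talazoparib and 33.1 and 27.7 CPM with the combination. The low level was thus in the combination libraries alone.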

How the results depend on the processing

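The 3 calls of romidepsin against control became 8 in DESeq2, 1 in limma on log2(FPKM + 0.1), 12 in edgeR's likelihood-ratio test, added after the data were seen, and 0 to 10 without 1 replicate; 10 were called without control 2, of which 2 were among the 3, 4 without romidepsin 1, 1 without control 1 or romidepsin 2 and 0 without combination 1 or 2, of which 0 were. The replicate block gave 0. With crossed romidepsin numbers, also added later, the block called 3, with 1161 genes at an unadjusted p under 0.05 against 522 in the main fit. The deviations of same-numbered control and romidepsin libraries correlated at -0.156. Over all pairs of groups this ran from -0.333 for romidepsin and talazoparib to 0.287 for control and talazoparib. Whether groups share a batch was not tested. Other scalings, filters, robust spread, limma on log2(FPKM + 1), the compared groups alone and summed Tmem254 copies gave 2 to 4. For romidepsin added to talazoparib, 3 calls became 27 in DESeq2, 1 in limma on log2(FPKM + 0.1), 5 with a robust spread, 36 in the likelihood-ratio test, 7 with the crossed block, 2 with the replicate block and 0 to 9 without 1 replicate. For the difference of effects, 2 calls became 7 in DESeq2, 1 in limma on log2(FPKM + 0.1), 1 with the replicate block, 7 in the likelihood-ratio test and 1 to 8 without 1 replicate. Signs turned only without 1 replicate, in genes near 0, whose ranges were -0.12 to 0.048 for Hdac1 (0.018 and 0.048 turned), -0.011 to 0.062 for Hdac2 (-0.010 and -0.011 turned), -0.050 to 0.0026 for Hdac3, -0.24 to 0.0098 for Hdac8, -0.074 to 0.12 for Abcb1b (-0.033 and -0.074 turned) and -0.051 to 0.10 for Mki67. The cause of these shifts was not tested. With 2 libraries per group and 1 cell line, depth limits low genes: under 1 CPM the 95% interval lay within 2-fold of no change for 51 of 1002.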

Other observations

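Some genes differed more between libraries of a group than between groups. Of 8916 genes with a mean of at least 10 CPM, 9 differed at least 4-fold between the control libraries and 10 between the romidepsin libraries. The means of both groups differed at least 4-fold in 3. A mean averages 2 libraries, so these counts are not like for like. The 3 were Mdm4, Atp6v0c, high in romidepsin 2 alone, and Tdg, high in control 1 alone. The examples below were chosen after their values were seen.

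In near-identical pairs the higher member differed between libraries. Rps27 stood at 6.90 CPM in control 1, 545 in control 2, 7.13 in romidepsin 1 and 664 in romidepsin 2, and its copy Rps27rt at 679, 42.9, 696 and 48.8 CPM. Atp6v0c, a subunit of the vacuolar proton pump, stood at 130 CPM in romidepsin 2 and at 2.45 to 2.91 CPM in the other 3, while the pseudogene Atp6v0c-ps2 stood at 0.0544 CPM in romidepsin 2 and 127 to 132 CPM in the others. In neither pair did the shift follow the treatment.

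Gpx1, a glutathione peroxidase, stood at 32.4 CPM in romidepsin 1 and 231 to 249 CPM in the other 7 libraries. Tdg, a DNA glycosylase, stood at 105 CPM in control 1 and 6.89 to 18.6 CPM in the other 7. Nsg2, a protein of neuronal endosomes, stood at 8.19 and 9.13 CPM in control, 14.5 and 32.6 CPM in the romidepsin libraries, 12.7 and 11.3 CPM in the talazoparib libraries and 18.0 and 22.5 CPM in the combination.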
